A study of Homo sapiens with 6 samples.

Results

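Processed pseudogenes are copies of messenger RNAs that were written back into the genome, and 152 of them were counted at a mean of at least 3 CPM (reads of a gene per 1000000 counted reads) in the ovarian carcinoma cells of this study. They were taken from the 10191 processed pseudogenes among the 58735 genes of the count table, of which 2434 had at least 1 read. The rule used the plain CPM (a gene's reads over the library's total) averaged over all 6 libraries, so the level of a member is a description and not a finding. That mean ran from 3.07 CPM for KRT8P3 to 758 CPM for EEF1A1P5, with a median of 9.19 CPM. Just outside the rule were COX6A1P2 at 2.98, CKS1BP3 at 2.98 and TMEM183B at 2.95 CPM, and just inside were KRT8P3 at 3.07, PRR13P5 at 3.16 and AP002784.2 at 3.18 CPM. All 152 members passed the filter on low counts, 139 of them had at least 3 CPM in both groups, and the other 13 were carried over the threshold by 1 group.

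The study sequenced poly(A)-selected RNA from 3 libraries of control cells and 3 of cells expressing BARD1, which joins BRCA1 in a ubiquitin ligase, to look at pathways of tumour angiogenesis. BARD1 was carried by a lentivirus with the BARD1 open reading frame, the protocol names a GFP-BARD1 signal, and both groups are labelled stable cells at 48 h. No label says what the control cells received, so an effect of BARD1 and other differences between a transduced and a control population cannot be told apart. The line is OVCAR8ip1 in the titles and growth protocol, whereas the cell line tag gives SKOV3ip1 and the tissue tag gives tumors of SKOV3ip1, so the line and the kind of material are in conflict. The replicates are called biological with no word on separate cultures, and the spread that p-values rest on is that between these libraries.

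A retrocopy has no introns and, as a rule, no promoter of its own, because only the spliced messenger was copied. Highly expressed housekeeping genes, above all those for ribosomal proteins, have left the most copies in the human genome. A young copy is so like its parent that a short read can match both places, and a count for such a copy can hold reads of the parent. The sources used here do not say how reads with more than 1 match were handled, or whether strand was used, so a read count below is what was assigned to that annotation and is uncertain wherever the copy matches its parent.

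The sequences of 5 members show how close the copies are. All are on GRCh38, read from the GENCODE 29 transcripts 5′ to 3′, and capitals mark a base that differs between copy and parent or is present in 1 of the pair only. AC005244.1 is shown because its reads were found in 1 group alone. It lies at chr17:12115547-12115885 on the plus strand and matches a stretch within the coding part of DYNLT1, a light chain of the dynein motor. The match has 17 substitutions, 1 inserted base and 1 missing base over 339 bases. The first 300 bases of the copy (chr17:12115547-12115846) and of the DYNLT1 coding part are given.
AC005244.1: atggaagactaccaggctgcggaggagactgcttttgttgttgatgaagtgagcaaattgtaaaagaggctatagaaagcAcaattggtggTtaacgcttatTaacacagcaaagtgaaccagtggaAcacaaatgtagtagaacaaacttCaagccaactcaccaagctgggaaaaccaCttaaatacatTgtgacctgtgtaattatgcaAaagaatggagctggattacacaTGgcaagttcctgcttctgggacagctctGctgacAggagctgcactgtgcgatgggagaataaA
DYNLT1: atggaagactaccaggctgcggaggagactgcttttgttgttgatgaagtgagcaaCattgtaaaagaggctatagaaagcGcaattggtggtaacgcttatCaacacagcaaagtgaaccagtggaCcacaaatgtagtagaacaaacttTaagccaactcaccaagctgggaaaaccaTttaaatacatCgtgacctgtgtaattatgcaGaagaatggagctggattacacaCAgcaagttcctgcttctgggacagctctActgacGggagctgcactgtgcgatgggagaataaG

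PPIAP22, a copy of the peptidylprolyl isomerase gene PPIA, is shown because it fell by more than 1 on the log2 scale while PPIA did not pass the test. It differs from the PPIA coding part by 2 substitutions in 498 bases, and bases 241 to 420 (chr21:18858019-18858198, plus strand) hold both.
PPIAP22: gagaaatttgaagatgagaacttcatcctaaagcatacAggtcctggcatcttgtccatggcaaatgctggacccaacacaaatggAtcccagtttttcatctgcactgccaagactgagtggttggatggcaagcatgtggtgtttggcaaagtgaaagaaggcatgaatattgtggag
PPIA: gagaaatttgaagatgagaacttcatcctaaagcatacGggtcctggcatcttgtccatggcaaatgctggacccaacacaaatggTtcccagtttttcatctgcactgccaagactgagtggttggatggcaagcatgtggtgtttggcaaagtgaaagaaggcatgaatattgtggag

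AC113935.1 and BX679664.3 are 2 copies of RPL17 on chromosome 1, and they are shown because both fell together with RPL17. Each differs from the RPL17 coding part by 4 substitutions in 555 bases. Bases 181 to 330 of each (chr1:77129294-77129443 and chr1:108992462-108992611, both plus strand) hold 2 differences that the copies have in common.
AC113935.1: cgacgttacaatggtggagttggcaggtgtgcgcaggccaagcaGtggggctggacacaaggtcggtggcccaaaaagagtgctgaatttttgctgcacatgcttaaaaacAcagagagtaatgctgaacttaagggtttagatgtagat
BX679664.3: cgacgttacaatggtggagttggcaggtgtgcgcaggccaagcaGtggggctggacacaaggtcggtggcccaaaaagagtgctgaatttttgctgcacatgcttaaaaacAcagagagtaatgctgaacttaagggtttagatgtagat
RPL17: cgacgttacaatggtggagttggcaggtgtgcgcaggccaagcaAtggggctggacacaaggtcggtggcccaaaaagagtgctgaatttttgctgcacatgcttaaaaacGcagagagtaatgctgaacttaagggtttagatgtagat

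RPL41P5 (chr12:93083598-93083675, minus strand) is the shortest member and is shown whole, because none of its 78 bases differs from the coding part of RPL41, yet its count moved apart from that of RPL41.
RPL41P5: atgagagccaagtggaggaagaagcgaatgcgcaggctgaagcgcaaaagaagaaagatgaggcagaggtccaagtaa

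The members were long and close copies. Of the 152, 150 had a single exon, and their median length was 684 bases (range 78 to 6821), against 525 bases for the other 10039 processed pseudogenes. A parent gene could be read from the name or the description for 137 members. Among these the median identity to the parent was 98.69% (lowest 73.6%), and 13 were identical over the aligned bases. For 134 of the 137 the protein-coding transcript most like the copy was that of the named parent. The exceptions were AC092296.2, described as a copy of ACOT2 and closest to ACOT4, EIF5AP4, closest to EIF5AL1 rather than EIF5A, and AL355032.1, described as a copy of RPL26L1 and closest to RPL26.

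The sequence shared with the parent was compared in windows of 50 bases, counted as shared where the whole window occurred unchanged in a transcript of the parent. A median of 55.2% of a member's windows were shared, against 0 for the other processed pseudogenes with a parent. Among pseudogenes with no shared window, 4 of 5531 (0.072%) were members. The share of members was 0.488% where over 0 and up to 25% of windows were shared, 13.0% up to 50%, 32.8% up to 75% and 58.8% (30 of 51) between 75 and 100%. Where every window was shared, 12 of 26 copies (46.2%) were members.

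**Figure D1:**
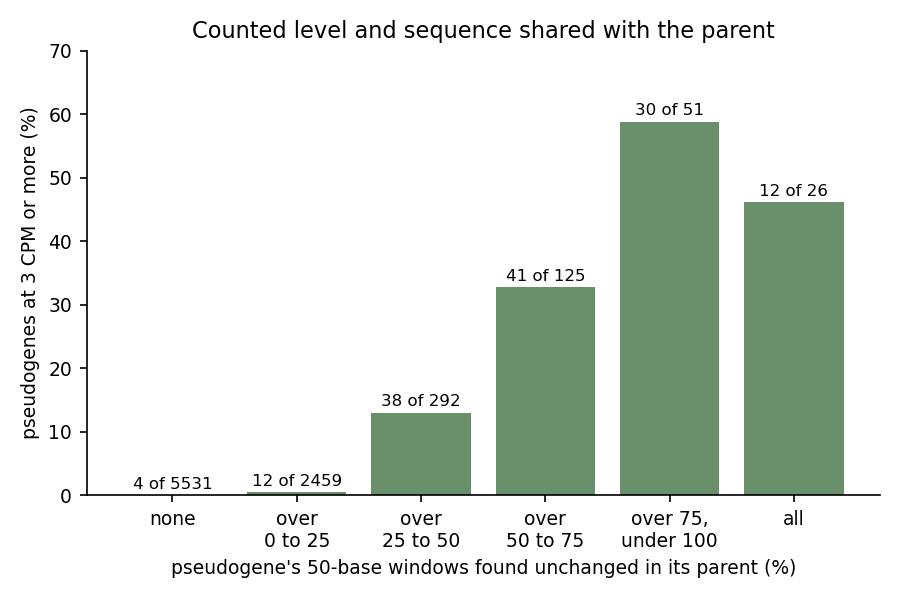
Share of processed pseudogenes that reached a mean of 3 CPM (vertical axis, %, with the number of members of all copies above each bar), by the share of their 50-base windows found unchanged in the parent gene (horizontal axis, %). Bars stand at 0.072% with no shared window and at 58.8% with over 75 and under 100% shared.

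Ribosomal protein genes were the most common parents. They were the parents of 54 members (35.5%) and of 20.7% of the other processed pseudogenes. RPSA, a protein of the small ribosomal subunit, had 67 processed copies in the table and 5 members. RPL21 had 147 copies and 2 members. In all, 23 parents had 2 or more members, which together were 49 of the 152.

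More of the members were lower than higher in BARD1-expressing cells. With edgeR's quasi-likelihood test, called at an adjusted p under 0.05, 45 members (29.6%) were lower, while 12.4% of the 15400 tested genes were. Only 11 members (7.24%) were higher, against 16.5% of all tested genes, and 96 were not called. Together 56 members were called, where 29.0% of all tested genes were. The median log2 fold change was -0.15 over the members and -0.003 over all tested genes. Among the 139 members with at least 3 CPM in both groups, 38 were lower and 10 higher, and the median log2 fold change was -0.11. Of the 13 that reached 3 CPM through 1 group, 7 were lower (AC005244.1, AL590867.2, RPSAP12, BZW1P2, HNRNPA3P6, FTH1P7 and KRT8P3) and 1 was higher (RPL29P11), and for these the rule itself favoured a difference. The count of higher members varied with the library left out. It was 6 without control replicate 2, 7 without BARD1-expressing replicate 3 and 14 without BARD1-expressing replicate 1.

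Called genes with a fold change of at least 2 made up 4.71% of all tested genes and were 6 of the members, all of them lower. The values of the 2 groups did not overlap in 73 members (48.0%), a share to be read beside the 40.9% of all tested genes. Members of low and high level were both among the lower ones. Of 34 members at 3 to 5 CPM, 9 were lower and 1 higher, and of 33 members at 30 CPM or more, 11 were lower and 3 higher.

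The shares of called parents were close to those of all tested genes. Of 110 tested parents, 18 (16.4%) were higher and 13 (11.8%) lower, beside 16.5% and 12.4% of all tested genes. Their median log2 fold change was 0.011. A further parent, FAM9C, had no read in any library. Without BARD1-expressing replicate 3 the parents' counts were 10 higher and 7 lower, and without control replicate 2 they were 12 higher and 7 lower. Protein-coding genes of at least 3 CPM were called higher in 19.0% and lower in 13.9% of 11057 cases. Other classes of pseudogene with at least 3 CPM were set beside the members. Of 131 unprocessed pseudogenes, which arise by duplication of DNA, 26 were lower and 5 higher, with a median log2 fold change of -0.16. Of 30 transcribed processed pseudogenes, 4 were lower and 5 higher.

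**Figure D2:**
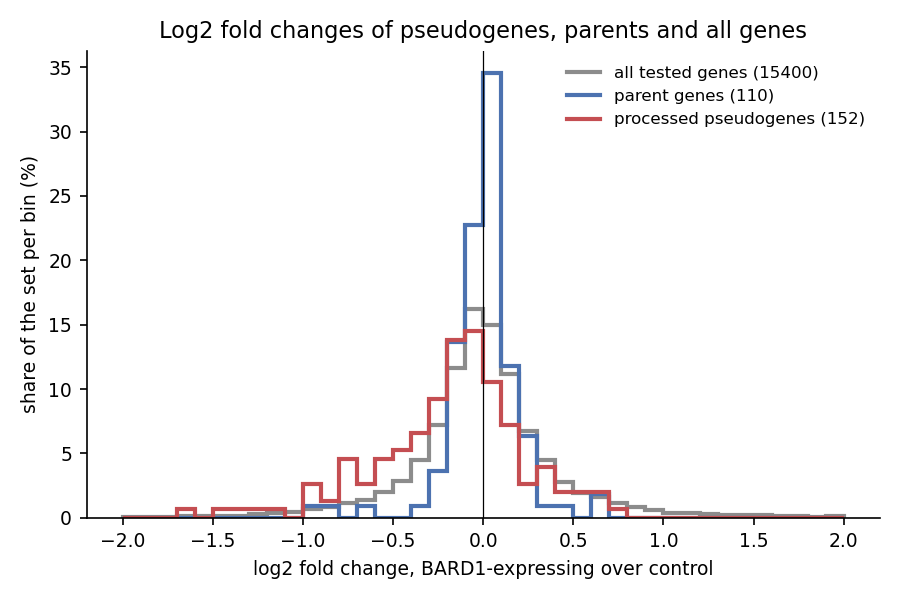
Log2 fold changes (horizontal axis, BARD1-expressing over control, bins of 0.1) as the share of each set in a bin (vertical axis, %), for the 152 processed pseudogenes, the 110 tested parents and all 15400 tested genes. The pseudogenes reach further to the left than their parents, with medians of -0.15 and 0.011, and AC005244.1 lies outside the plotted range. Over the 139 pseudogenes with at least 3 CPM in both groups the median was -0.11.

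As a share of all counted reads, the members took 0.553% ± 0.00988 in control and 0.479% ± 0.0183 in BARD1-expressing libraries (SD, n = 3 each). The ranges did not overlap, and the exact two-sided permutation test gave p = 0.1, which is the lowest value a design of 3 against 3 can reach. Without AC005244.1 the control share was 0.528% ± 0.00928. The parents took 8.46% ± 0.121 of the reads in control and 8.84% ± 0.16 in BARD1-expressing libraries. Depth ran from 21819199 to 23992482 counted reads per control library and from 12744310 to 24349158 per BARD1-expressing library, and its part in the members' share was not tested. Among BARD1-expressing libraries the members' share was 0.458% in replicate 1, the shallowest of the 6. It was 0.489% in replicate 3 with 15147685 reads and 0.490% in replicate 2, the deepest of the 6.

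AC005244.1 was the member with the largest change and the only one with no read in a whole group. Control libraries held 5762, 5756 and 5193 of its reads, and none was counted in the BARD1-expressing ones. On the CPM scale with TMM factors (the trimmed mean of M values, used for every CPM from here on), that was 243 ± 7.84 CPM in control cells (SD, n = 3), a level exceeded in control by only 4 other members (EEF1A1P5, RPS2P5, RPS28P7 and AC008038.1). With a floor of 3 counts, which 0 reads still allow, the 3 pooled BARD1-expressing libraries put AC005244.1 at least 4243-fold lower than in control cells (edgeR adjusted p = 8.71e-24). This bound follows the depth of the libraries at 0 and was 2266-fold without BARD1-expressing replicate 2. It covers counting error only.

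DYNLT1 itself (chromosome 6) had 36.0, 34.7 and 38.0 CPM in control and 42.2, 38.8 and 39.3 CPM in BARD1-expressing cells. Those ranges did not overlap, but the log2 fold change of 0.14 ± 0.07 (SE) was not called (edgeR adjusted p = 0.149). Only 2.41% of the windows of AC005244.1 occur unchanged in DYNLT1, and the identity of the pair is 94.4%. Per kilobase of annotated length, AC005244.1 was counted 58.4 times as high as DYNLT1 in control cells, while in BARD1-expressing cells only DYNLT1 was counted. That ratio divides by 339 bases for the copy and 2949 for DYNLT1. In CPM the control means were 243 and 36.2. The copy lies inside MAP2K4, a kinase of the stress-activated JNK pathway, on the same strand and in none of its exons. MAP2K4 had 23.7, 24.7 and 26.7 CPM in control and 35.5, 29.9 and 29.9 CPM in BARD1-expressing cells, a rise of 0.34 on the log2 scale (edgeR adjusted p = 0.00425). The host and the parent were thus both counted in every library, at levels that left no library at 0.

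**Figure D3:**
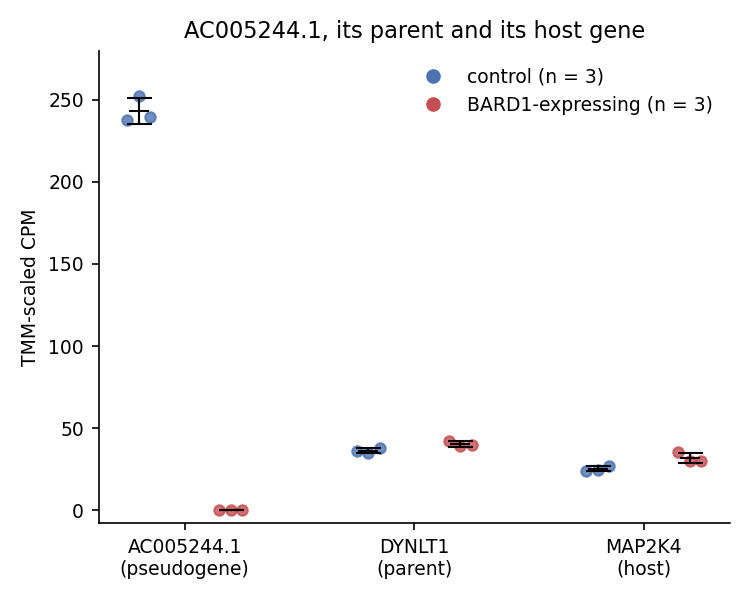
TMM-scaled CPM (vertical axis, linear) of AC005244.1, its parent DYNLT1 and its host MAP2K4 in each of the 3 control and 3 BARD1-expressing libraries, with the mean and SD per group as bars. AC005244.1 stands at 238 to 252 CPM in control and at 0 in BARD1-expressing libraries, while the 2 other genes stay between 23.7 and 42.2 CPM.

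Copies of genes for the large ribosomal subunit held the most lower members. Of 34 such copies, 18 (52.9%) were lower and 3 (8.82%) higher, beside 12.4% and 16.5% of all tested genes. Of their 26 parents, 2 were lower and 4 higher. AL590867.2, a copy of RPL27A, had 7.55, 7.45 and 6.83 CPM in control and 2.67, 2.68 and 2.46 CPM in BARD1-expressing cells. Every BARD1-expressing library was below every control library, a log2 fold change of -1.48 ± 0.16 (SE, edgeR adjusted p = 1.43e-07). AL590867.2 reached the 3 CPM of the rule in control alone, so the rule favoured this difference. RPL27A, with 671 ± 47.8 CPM in control and 699.6 ± 112 CPM in BARD1-expressing cells, was not called (log2 fold change 0.06, adjusted p = 0.788), except without BARD1-expressing replicate 1, where it was higher (0.178). RPL9P7 (log2 fold change -0.94), AC016739.1 (a copy of RPLP1, -0.92), RPL21P75 (-0.70), RPL7AP6 (-0.66) and RPL4P4 (-0.56) were other lower copies. Among their parents only RPL7A was called, and it was higher (0.15).

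The copies of RPL17 fell along with their parent. AC113935.1 had 15.8, 13.4 and 13.2 CPM in control and 5.11, 4.83 and 3.38 CPM in BARD1-expressing cells, a log2 fold change of -1.66 ± 0.14 (edgeR adjusted p = 2.34e-09). BX679664.3 went from 19.9 ± 2.66 to 11.8 ± 1.80 CPM (-0.78 ± 0.12, adjusted p = 2.50e-05). RPL17 itself, a protein of the large subunit, had 21.4, 20.2 and 17.3 CPM in control and 8.97, 12.7 and 8.36 CPM in BARD1-expressing cells (-0.94 ± 0.13, adjusted p = 2.22e-05). The copies lie on chromosome 1 and RPL17 on chromosome 18, where 170 of 228 tested genes were lower and the median log2 fold change was -0.66. RPL17 shares 32.7% of its exon bases with the read-through gene RPL17-C18orf32. Per kilobase of annotated length, AC113935.1 was at 2.78 times and BX679664.3 at 4.75 times the level of RPL17. In CPM, AC113935.1 was below RPL17 in every library. The sequences above show how few bases set the copies and RPL17 apart.

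Of 20 copies of genes for the small subunit, 5 (25%) were lower, beside 12.4% of all tested genes. Of their 12 parents, 1 was higher and 1 lower. Copies of RPSA, a laminin-receptor-related protein of the 40S subunit, were 5 of these members and moved unequally. RPSAP19 had 10.1, 11.2 and 10.7 CPM in control and 3.54, 4.34 and 4.25 CPM in BARD1-expressing cells (log2 fold change -1.38 ± 0.14, edgeR adjusted p = 2.60e-08). RPSAP12 had 6.11, 6.0 and 6.23 CPM in control and 1.89, 2.81 and 3.12 CPM in BARD1-expressing cells (-1.20 ± 0.18, adjusted p = 1.45e-05). As a group mean, RPSAP12 reached the 3 CPM of the rule in control alone, so the rule favoured its difference. The remaining copies were not called: RPSAP47 at -0.22, RPSAP15 at -0.01 and RPSAP58 at 0.02. RPSA, at 2059 ± 27.1 and 2016 ± 37.7 CPM, was not called either (-0.03 ± 0.04, adjusted p = 0.655). The lower copies were the least abundant of the RPSA copies, and shared 36.1% and 34.6% of their windows with RPSA, while RPSAP58, RPSAP15 and RPSAP47 shared 76.2%, 41.3% and 15.0%. The changes of these copies were not in the order of the windows they share.

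RPS3AP26, a copy of the small-subunit gene RPS3A, had 13.5, 13.6 and 12.9 CPM in control and 8.10, 6.19 and 6.04 CPM in BARD1-expressing cells (-0.99 ± 0.13, edgeR adjusted p = 1.26e-06). RPS3A was at 796 ± 15.0 and 848.6 ± 23.6 CPM and was not called (0.09, adjusted p = 0.143). AC073861.1, a copy of RPS18, fell by 0.32 on the log2 scale while RPS18 rose by 0.20.

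**Figure D4:**
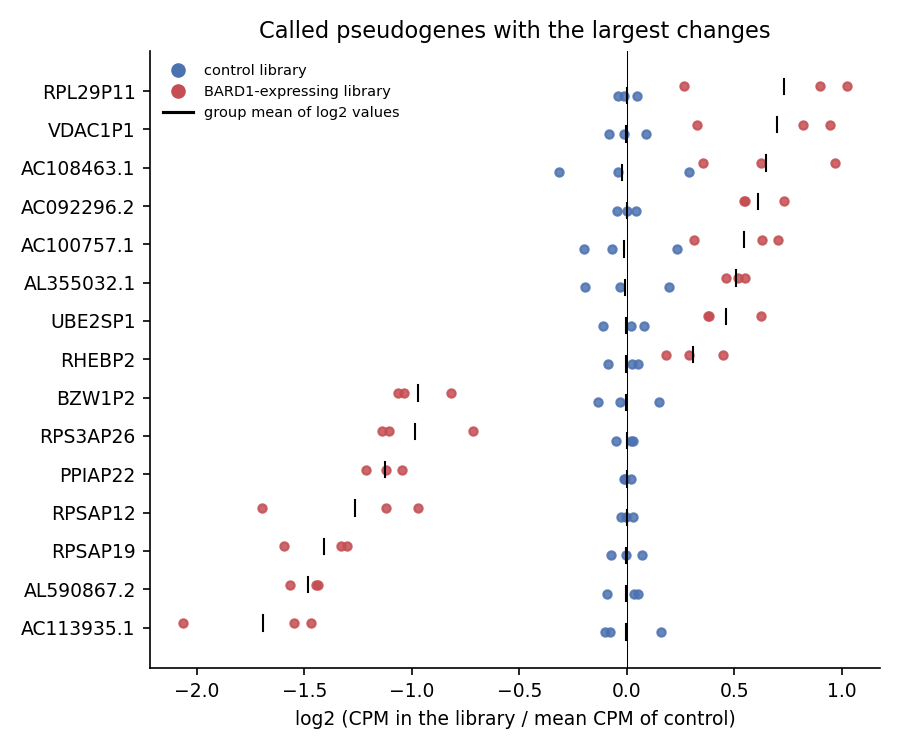
Log2 ratio of the CPM in each library to the mean CPM of control (horizontal axis) for the 15 called pseudogenes with the lowest and the highest log2 fold changes among those without overlap between groups, AC005244.1 left out because its BARD1-expressing libraries are at 0. Points are libraries, 3 per group, and black ticks are group means of the log2 values.

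Among copies of translation factor genes, 4 of 13 (30.8%) were lower, beside 12.4% of all tested genes. Of their 11 parents, 4 were higher and 3 lower. EEF1A1P5, the most abundant member, is a copy of EEF1A1, the elongation factor that brings aminoacyl-tRNA to the ribosome. It had 853, 903 and 855 CPM in control and 619, 629 and 690 CPM in BARD1-expressing cells, a log2 fold change of -0.43 ± 0.05 (edgeR adjusted p = 4.03e-07). EEF1A1 moved the other way, from 15667 ± 494 to 19159 ± 371 CPM (0.29 ± 0.04, adjusted p = 1.20e-05). A second copy, EEF1A1P6, fell with EEF1A1P5, from 87.3 ± 4.02 to 68.4 ± 2.84 CPM (-0.35 ± 0.06, adjusted p = 9.36e-05). The log2 ratio of EEF1A1P5 to EEF1A1 was -4.15, -4.16 and -4.21 in control and -4.98, -4.90 and -4.80 in BARD1-expressing libraries, without overlap (exact two-sided permutation p = 0.1, the smallest possible). EEF1A1P5 is 99.71% identical to EEF1A1 and shares 85.1% of its windows with it.

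Outside these classes fewer members were lower, beside 12.4% of all tested genes lower and 16.5% higher. Of 37 members whose parents were in no named class, 2 (5.41%) were lower and 2 higher. Of 15 members without a parent by the naming rule, 1 (6.67%) was lower and 3 were higher. The remaining classes had at most 8 members each, and their shares stand beside the same 12.4%. Of 8 copies of RNA-binding and splicing genes, 4 (50%) were lower, and of their 6 parents 1 was higher. HNRNPA1P10 fell by 0.88 and HNRNPA1P7 by 0.75 on the log2 scale, and their parent HNRNPA1, a nuclear RNA-binding protein, was not called (-0.03). HNRNPA1P7 lies on chromosome 18, where 170 of 228 tested genes were lower. HNRNPA3P6, which reached the 3 CPM of the rule in control alone, fell by 0.76 while HNRNPA3 rose by 0.26. Of 6 copies of chromatin and nuclear genes 3 (50%) were lower, H3F3AP6 (-0.76), NPM1P27 (-0.55) and HMGB1P6 (-0.22). NPM1 and HMGB1 were lower as well (-0.27 and -0.14). Both members copied from PGAM1, a glycolytic mutase, were lower (AC012085.1 at -0.50 and AC078819.1 at -0.33) while PGAM1 was not called (-0.05).

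PPIAP22, whose sequence is given above, was 1 of 3 copies of chaperone genes and the only one of them called. It had 19.9, 19.6 and 19.5 CPM in control and 9.04, 9.54 and 8.49 CPM in BARD1-expressing cells. The spread within each group was small beside the gap, which came to -1.12 ± 0.10 on the log2 scale (edgeR adjusted p = 6.18e-09). PPIA had 1279 ± 61.7 and 1257 ± 87.4 CPM and was not called (-0.02 ± 0.05, adjusted p = 0.772). BZW1P2, a copy of the translation regulator BZW1, fell from 4.57 ± 0.465 to 2.34 ± 0.224 CPM (-0.98 ± 0.19, adjusted p = 0.000317). It reached the 3 CPM of the rule in control alone, so the rule favoured its difference. BZW1 fell by 0.16 on the log2 scale (adjusted p = 0.0276), a call that 5 of 12 alternative analyses did not make.

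The 11 higher members included copies of several genes that were higher themselves. VDAC1P1, a copy of the mitochondrial outer-membrane channel gene VDAC1, had 4.0, 4.20 and 4.52 CPM in control and 8.18, 5.33 and 7.50 CPM in BARD1-expressing cells (log2 fold change 0.69 ± 0.17, edgeR adjusted p = 0.00295). VDAC1 had 303 ± 7.22 and 466 ± 10.6 CPM (0.62 ± 0.05, adjusted p = 3.66e-10). Their log2 changes differed by less than the SE of VDAC1P1. AC007318.1 rose by 0.27 on the log2 scale, and its parent VDAC2 by 0.23. UBE2SP1, a copy of the ubiquitin-conjugating enzyme gene UBE2S, went from 6.42 ± 0.421 to 8.87 ± 0.900 CPM (0.46 ± 0.13, adjusted p = 0.0106) and UBE2S from 231 ± 10.2 to 362 ± 24.9 CPM (0.65 ± 0.05, adjusted p = 1.87e-09). RHEBP2 rose by 0.31 and RHEB, a GTPase that activates mTORC1, by 0.15 on the log2 scale, though 6 of 12 alternatives did not call RHEB.

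RPL29P11 had the highest log2 fold change. It had 2.35, 2.50 and 2.40 CPM in control and 2.91, 4.50 and 4.91 CPM in BARD1-expressing cells, or 0.79 ± 0.21 on the log2 scale (edgeR adjusted p = 0.00520). It was above the 3 CPM of the rule in the BARD1-expressing group alone. AL450405.1, the other copy of RPL29, rose from 141 ± 4.67 to 161 ± 4.41 CPM (0.20 ± 0.05, adjusted p = 0.00564), and RPL29 was not called (0.07) except without BARD1-expressing replicate 1 (0.127). AC092296.2 went from 19.4 ± 0.597 to 29.6 ± 2.25 CPM (0.61 ± 0.08, adjusted p = 5.68e-06). The gene in its description, ACOT2, an acyl-CoA thioesterase, was not called (-0.03), and the gene closest to it in sequence, ACOT4 (90.9% identity), was higher (1.07 ± 0.21, adjusted p = 0.00034).

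AL355032.1 rose from 5.11 ± 0.703 to 7.27 ± 0.223 CPM (0.51 ± 0.15, edgeR adjusted p = 0.00937). RPL26L1, its described parent, rose by 0.29 on the log2 scale (adjusted p = 0.000187), while its closest match RPL26 was not called (0.24, adjusted p = 0.649). AC100757.1 has no parent by the naming rule. It is described as a copy of RNF145, a ubiquitin ligase of the endoplasmic reticulum, and rose by 0.54 (adjusted p = 0.0112), and RNF145 rose by 0.39 (adjusted p = 8.62e-07). AC108463.1, described as like part of the deubiquitinase gene UCHL5, rose by 0.66 (adjusted p = 0.00890), and UCHL5 was not called (-0.07).

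Across 136 pairs of a member and a tested parent, the member's log2 fold change was below the parent's in 104 and above it in 32. The median difference was -0.13 on the log2 scale, with quartiles of -0.38 and -0.02. Members of 1 parent share that parent's value, so the pairs are not independent, and no test was made of this count. The pairs include members that reached 3 CPM through 1 group, for which the rule itself favoured a difference. Spearman's rho between the 2 log2 fold changes was 0.35 over the 136 pairs. Of the lower members, 29 had a parent that was not called, 10 a lower parent and 5 a higher parent. The last were EEF1A1P5, EEF1A1P6, HNRNPA3P6, RPL7AP6 and AC073861.1. Of the higher members with a parent, 5 had a higher parent and 3 had one that was not called. In the other direction, 10 members of a higher parent and 7 of a lower parent were themselves not called.

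**Figure D5:**
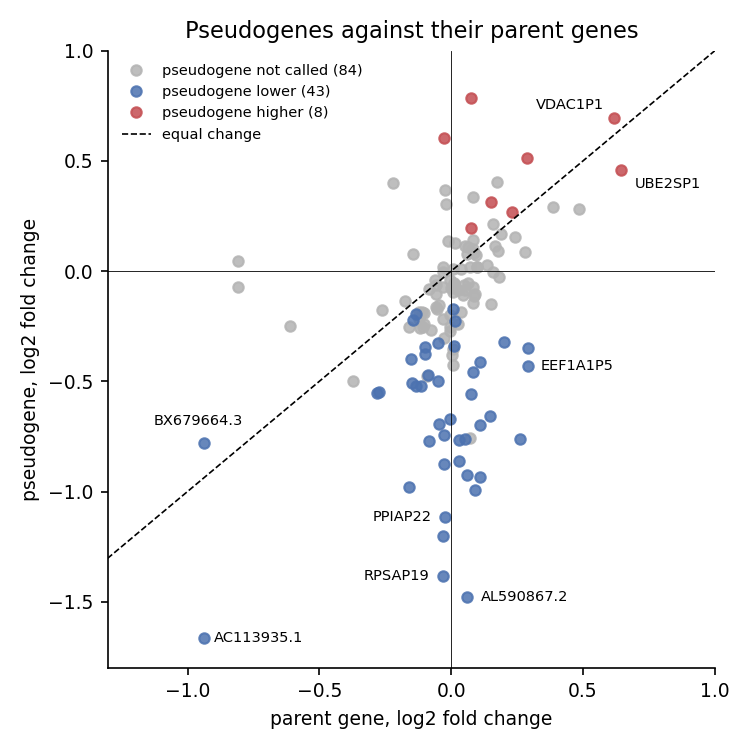
Log2 fold change of each pseudogene (vertical axis) against that of its parent (horizontal axis), BARD1-expressing over control, for 135 pairs (AC005244.1 lies outside the plotted range), with the dashed line marking equal change. More points lie below the line than above it, and AC113935.1, BX679664.3, VDAC1P1 and UBE2SP1 are among the few whose parent moved by more than 0.6.

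Members that share a parent were set side by side. Of the 23 parents with 2 or more members, 8 had every member lower, 1 (RPL29) had every member higher, 8 had some lower and the rest not called, and 6 had no called member. The 8 with every member lower were EEF1A1, HNRNPA1, PGAM1, RPL10, RPL17, RPL21, RPL41 and RPLP0, each with 2 members. Of these parents RPL17 and RPLP0 were lower, EEF1A1 was higher and the rest were not called. The members from RPS2, RPS2P5 and RPS2P46, each had a log2 fold change of 0.02.

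Members that match their parent without a difference were not alike in their change. Of 12 copies with every window shared, 4 were lower and 0 higher, and the median difference from the parent was -0.08. Of all tested genes 12.4% were lower and 16.5% higher. RPL41P1 had 19.5, 24.7 and 18.1 CPM in control and 9.91, 12.5 and 11.5 CPM in BARD1-expressing cells (-0.86 ± 0.12, edgeR adjusted p = 5.36e-06). RPL41P5 had 6.02, 5.87 and 6.37 CPM in control and 3.62, 4.09 and 2.85 CPM in BARD1-expressing cells (-0.77 ± 0.17, adjusted p = 0.00107). RPL41, a very short protein of the large subunit, was at 1080 ± 80.7 and 1102 ± 143 CPM and was not called (0.03, adjusted p = 0.868). RPL21P16 (-0.41, adjusted p = 0.000565) and FABP5P7 (-0.47, adjusted p = 0.000128) were the other lower ones, and neither RPL21 (0.11) nor FABP5 (-0.09) was called. Where over 75 and under 100% of windows were shared, 14 of 30 members were lower and 1 higher. The median difference from the parent was -0.26 there. With over 50 and up to 75% shared, 13 of 41 were lower and 3 higher (median difference -0.13). With over 25 and up to 50% shared, 12 of 38 were lower and 2 higher (median difference -0.12). Where at most 25% were shared, 1 of 16 was lower, 2 were higher and the median difference was -0.04 over the 15 with a tested parent.

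The level of a member relative to its parent was higher where more than 50% of its windows were shared. Per kilobase of annotated length, the members were at a median of 17.0% of their parent's level. The median was 6.14% where at most 25% of windows were shared, 5.80% up to 50%, 19.0% up to 75%, 25.4% under 100% and 167% where all were shared. In 21 pairs the copy was counted above the parent per kilobase. All of these per-kilobase values divide by the annotated length of the whole gene, which for a parent can far exceed the part that was copied. RPS28P7, identical to RPS28 over 210 bases, had 305 ± 9.24 CPM in control and 296 ± 51.9 CPM in BARD1-expressing cells and was 13.8 times as high as RPS28 per kilobase. Per kilobase, AC116533.1 was 173 times as high as RPL36A, and AC024293.1 142 times as high as RPS10. The exons of RPL36A and RPS10 are in part also those of the read-through genes RPL36A-HNRNPH2 and RPS10-NUDT3 (8.40% and 39.4% of their bases), so the parents' own counts are uncertain too.

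The most abundant members were copies of translation and ribosomal genes. After EEF1A1P5 came RPS2P5 with 355 ± 9.56 CPM in control and 359 ± 40.6 CPM in BARD1-expressing cells. AC008038.1 had 290, 297 and 281 CPM in control and 315, 331 and 312 CPM in BARD1-expressing cells (log2 fold change 0.14 ± 0.05, edgeR adjusted p = 0.0293), and 7 of 12 alternative analyses did not make that call. It is described as a copy of the elongation factor gene EEF1G and is 99.2% identical to it. EEF1G had 0 reads in 5 libraries and 2 in control replicate 2, and 99.9% of its exon bases are also annotated to AP002990.1. The exon of AC008038.1 overlaps those of CHCHD3 and MIR3654 on the same strand. RPL7P1 went from 197 ± 6.41 to 175 ± 9.42 CPM (-0.17 ± 0.05, adjusted p = 0.0178), which 4 of 12 alternatives did not call, and RPL7 was not called (0.01). RPSAP58 (180 ± 13.3 and 182 ± 19.6 CPM) and RPS2P46 (128 ± 3.32 and 130 ± 17.3 CPM) were not called, and neither were their parents RPSA and RPS2, though RPS2 was higher without BARD1-expressing replicate 1 (0.182).

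Position in the genome was also set beside the changes. Of the 152 members, 80 lie inside another gene, 31 on its strand and 49 on the other, and 10 overlap an exon of another gene. Over the 51 members with a tested host, Spearman's rho between the log2 fold changes of member and host was -0.04. Chromosome 18 held 2 members, of which 1 was called. This was HNRNPA1P7, which fell from 5.73 ± 0.227 to 3.43 ± 0.251 CPM (edgeR adjusted p = 0.00108). Its host GAREM1, on the same strand, fell by 0.81 on the log2 scale. Of all 228 tested genes of that chromosome, 170 were lower and the median log2 fold change was -0.66.

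A few members varied more between libraries of 1 group than between the groups. SPCS2P4 had 159, 395 and 240 reads in control and 171, 60 and 97 reads in BARD1-expressing libraries, while its parent SPCS2, a subunit of the signal peptidase, had 115 ± 4.21 and 120 ± 1.53 CPM. LSM12P1 had 388, 329 and 540 reads in control and 283, 353 and 375 reads in BARD1-expressing libraries. Neither was called (edgeR adjusted p = 0.540 and 0.811). Their reads are given without scaling for depth, and BARD1-expressing replicate 1 was the shallowest library.

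BARD1 had 414, 392 and 420 reads in control and 623, 1072 and 688 reads in BARD1-expressing libraries, so it was present in both groups and higher where labelled. Of 12 markers of ovarian serous carcinoma, 7 had a mean of at least 3 CPM, MUC16, KRT19 and EMX2 had no read, and their summed level was 3957 to 4030 CPM in control and 3928 to 4195 CPM in BARD1-expressing libraries. KRT8 made up the largest share of that sum, KRT7, FOLR1 and WT1 were higher and PAX8 was lower in BARD1-expressing cells. The 4 endothelial and 5 leukocyte markers summed to at most 1.99 and 1.40 CPM in any library, and KDR of the endothelial list was higher. The 5 fibroblast markers summed to 1014 to 1082 CPM in control and 839 to 886 CPM in BARD1-expressing libraries, nearly all of it COL1A1, with DCN at 0. Of the fibroblast list, 2 were higher and 1 lower. Fewer cells of a type and less RNA per cell cannot be told apart in bulk samples.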

How the data were processed

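Raw read counts per gene, as deposited by the authors, were used for 3 control and 3 BARD1-expressing libraries. The submitters' processing notes name GRCh38, featureCounts 1.5.0-p3, HISAT2 2.0.5 and DESeq2 1.20.0, and their options are not given in the sources used here. All 58735 genes matched GENCODE 29 by identifier and position. Library totals were 12744310 to 24349158, and 3 counts correspond to 0.123 to 0.235 CPM. Tests used edgeR 4.0.16 (R 4.3.3): filterByExpr (15400 genes), TMM, a robust quasi-likelihood F test on group with 4 residual degrees of freedom, Benjamini-Hochberg adjustment over all tested genes and a threshold of 0.05. The SE given with a log2 fold change is its absolute value divided by the square root of the F statistic of that test. Copies were aligned to protein-coding transcripts with blastn 2.17.0. Parents came from the symbol or the description.

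The members, lists and rules were chosen with earlier results of these data known. Named were AC005244.1, the 8 most abundant members, the 8 highest and 8 lowest called members without overlap between groups, the 6 furthest from their parent, their parents and the 6 pseudogenes nearest the threshold. Every other gene was picked with its values in view. The pipeline was tested on simulated data. DESeq2 1.42.0, other scalings, filters, membership levels, a replicate block and leaving out each library were alternatives.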

Additional observations from a re-analysis of the deposited data

How the results depend on the processing

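The excess of lower over higher members was present under every alternative run. Higher and lower members numbered 11 and 45 with DESeq2 size factors and with total counts only, 11 and 40 with DESeq2, 12 and 49 with no filter, 11 and 46 with a filter at 3 CPM, 12 and 63 of 288 pseudogenes of at least 1 CPM, 5 and 24 of 73 of at least 10 CPM, and 10 and 38 of the 139 with 3 CPM in each group. Leaving out AC005244.1, an alternative added after seeing the data, gave 44 lower. Leaving out 1 library at a time gave 6 to 14 higher and 39 to 43 lower members, 10 to 23 higher and 7 to 14 lower parents, and a median difference from the parent of -0.154 to -0.114. Parents were assigned to 97 members by name alone and to 128 by description alone. Replicate numbers are shared between the groups. The correlations of same-numbered libraries' deviations from their group means were -0.112, -0.031 and -0.009, and those of differently numbered libraries ran from -0.113 to 0.150. With 3 libraries per group these values cannot settle whether the samples were paired. With the replicate number as a block, 10 members were higher and 43 lower, and 14 parents were higher and 7 lower.

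Of 41 named members and parents, 21 kept direction and call in all 12 alternatives, 9 lost a call in at least 1, 3 gained one and 9 that were not called changed sign, RPL27A being in both of the last groups. Without BARD1-expressing replicate 1, RPS2 (0.182, adjusted p = 0.0028), RPL27A (0.178, adjusted p = 0.0070) and RPL29 (0.127, adjusted p = 0.042) were called higher. Leaving out 1 library at a time put the log2 fold change between -0.056 and 0.101 for RPS2P5, -0.132 and 0.090 for RPS28P7, -0.061 and 0.094 for RPSAP58, -0.049 and 0.118 for RPS2P46, -0.133 and 0.061 for RPS28, -0.0196 and 0.0299 for RPL7, -0.077 and 0.027 for ACOT2, -0.044 and 0.178 for RPL27A, and -0.067 and 0.025 for PPIA. RPL7 was also at -0.0070 with no filter, -0.0026 with the stricter filter and -0.0030 with total counts only. Calls for the higher members AC108463.1, AC100757.1, RHEBP2, AL355032.1 and UBE2SP1 were lost in 1 or 2 alternatives each. The causes were not tested. Depth limits members near 3 CPM, which rest on few reads in the shallowest library, and the counts of copies that match their parent also depend on how reads were assigned.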
